A study of Mus musculus with 12 samples.

Results

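Group 2 innate lymphoid cells (ILC2) were taken from the synovium of mice with serum transfer arthritis (STA) that also received Il23mc and compared with ILC2 from healthy synovium. The comparison holds 1447 cells, 629 from 3 mice with STA + Il23mc and 818 from 3 healthy mice, out of 8042 cells in the authors' table of kept cells. Members were the cells of the first experiment whose deposited class name starts with ILC2, with no UMI (unique molecular identifier, a count of 1 captured RNA molecule) of Cd3d or Cd3e, subunits of the T cell receptor complex. That last condition left out 127 further ILC2 of these mice.

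Innate lymphoid cells were sorted from ankle and wrist joints as live CD45+ tdTomato+ cells that lacked CD3, both T cell receptors, CD11b and GR-1, and were read by droplet single-cell RNA sequencing of transcript 3' ends. Antibody hashtags against CD45 and B2m marked each mouse. All mice were R5 x R26tdTomato of the genotype Il5 wt/Cre; R26 tdTom/tdTom and were 8 to 10 weeks old. The healthy mice (HC) were untreated, and the other group had STA, an arthritis set off by transferred serum, plus Il23mc, which the labels do not spell out and which is read here as an interleukin-23 minicircle. Cre stands at 1 allele of Il5, so in both groups tdTomato marks cells that use or once used the Il5 locus, and ILC2 without that history were not sampled. The labels speak of 4 animals per well, while each of these wells holds hashtags of 3 mice. Each group filled a well of its own, so the well and the condition cannot be told apart within the first experiment. The healthy hashtag of the second experiment, with 791 ILC2 by the same rule from another well, is given beside results as an outside healthy reference.

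The ILC2 of a mouse gave 528788 to 1996296 UMIs. The median ILC2 held 4131 to 4651.5 UMIs in the healthy mice and 3566.5 to 4308 in the Il23mc mice, and mitochondrial transcripts made up 5.47 to 5.89% and 4.14 to 4.69% of its UMIs (3.68% in the outside healthy hashtag). Cells with Cd3d or Cd3e made up 1.20 to 1.64% of the annotated ILC2 of healthy mice but 33.0, 12.5 and 6.20% in Il23mc mice 1, 2 and 3. The 2 wells shared 2 cell barcodes, 1 of them among kept cells. By Ddx3y, with 144 and 97 UMIs, mouse 1 of each group was male, and mice 2 and 3 of each group carried Xist. The ILC2 markers Gata3, Rora, Il1rl1, Il7r, Klrg1, Il5, Il13 and Areg were present in every mouse and summed to 6628 to 7673 CPM (UMIs per 1000000 UMIs of the ILC2 of that mouse) in the healthy and 8189 to 9282 CPM in the Il23mc mice, which fits the deposited class name. Summed T cell markers were at 56.6 to 101 CPM in the healthy and 79.7 to 92.7 CPM in the Il23mc mice, with Cd3d and Cd3e at 0 by the rule, and NK cell markers at 0 to 0.501 and 5.46 to 7.56 CPM. Summed fibroblast markers were 10.0 to 21.7 CPM in the healthy and 26.2 to 41.6 CPM in the Il23mc mice, with Pdgfra at 0 in all 6, and mast cell or basophil markers 3.61 to 20.04 and 20.8 to 24.1 CPM, with Cpa3, Mcpt8 and Ms4a2 at 0. Neither pair of ranges overlapped, and the part of such cells in the results was not tested. Endothelial markers, at 15.3 to 26.0 and 20.7 to 34.0 CPM, did overlap.

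ILC2 are tissue-resident lymphocytes without antigen receptors. They are known for releasing interleukin-5 (IL-5), IL-13 and the growth factor amphiregulin when epithelial and stromal alarmins, lipid mediators and neuropeptides bind their receptors, and for restraining or resolving inflammation in joints. Interferons bind surface receptors whose kinases phosphorylate STAT proteins, and STAT dimers and interferon regulatory factors then bind GAS and ISRE elements in the promoters of target genes. Among the best known targets are the guanylate-binding and immunity-related GTPases, which attack intracellular pathogens, and the genes of antigen presentation.

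Since interferon-inducible GTPases were among the genes that differed most, the bases just before the start of 4 of them are shown, from RefSeq promoters on GRCm38.p6. Each run holds the 120 bases before the annotated start, read 5' to 3' on the gene's strand. Capitals mark matches, on either strand, to a GAS-like word (TTCNNNGAA) or an ISRE-like word (GAAA, any 2 bases, GAAA).
Tgtp1 (chr11:48992247-48992366, minus strand): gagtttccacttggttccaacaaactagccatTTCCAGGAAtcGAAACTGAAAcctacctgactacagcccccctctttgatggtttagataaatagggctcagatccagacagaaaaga
Tgtp2 (chr11:49064213-49064332, minus strand): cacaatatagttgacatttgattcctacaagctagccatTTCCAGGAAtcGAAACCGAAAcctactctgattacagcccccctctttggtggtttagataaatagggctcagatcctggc
Igtp (chr11:58199436-58199555, plus strand): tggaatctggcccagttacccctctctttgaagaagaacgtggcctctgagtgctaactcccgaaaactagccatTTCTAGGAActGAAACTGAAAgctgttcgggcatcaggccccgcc
Gbp2 (chr3:142620543-142620662, plus strand): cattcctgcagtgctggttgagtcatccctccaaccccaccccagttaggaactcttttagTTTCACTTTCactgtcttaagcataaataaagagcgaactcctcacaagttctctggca
In the first 3 promoters the GAS-like match stood just upstream of the ISRE-like one, from 88, 81 and 45 bases before the start in Tgtp1, Tgtp2 and Igtp. Gbp2 held an ISRE-like match alone, on the opposite strand, 50 to 59 bases before its start. Over windows of 250 bases before to 50 after the start, 7 of the 8 GTPase genes that changed and have a promoter in the table held either word (4 of them both). The same was true of 7 of the 10 changed genes of the wider interferon response list, 5 of the 16 changed class I genes and 17.5% of the 297 changed genes that were higher in the Il23mc mice. Either word stood in 11.6% of the 5261 tested genes with a promoter and in 12.9% of all 27025 promoters. The genes were chosen by their change, so these shares describe them and test nothing.

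Of 6603 genes tested, 636 (9.63%) passed an adjusted p of 0.05 (quasi-likelihood test of edgeR, Benjamini-Hochberg adjustment over all 6603 genes), 392 (5.94%) higher and 244 (3.7%) lower in the Il23mc mice. No healthy mouse overlapped an Il23mc mouse in CPM for 604 of the 636, against 28.8% of all tested genes. The outside healthy hashtag lay on the healthy side of the Il23mc range for 553 of the 636 (321 higher, 232 lower, together 86.9%), against 44.2% of the 5967 genes that did not pass. With scaling by library size alone in place of TMM factors, the median of all genes shifted by -0.16 on the log2 scale and the split became 275 higher to 443 lower, that is 38.3% higher in place of 61.6%. Changes below are therefore relative to the TMM scale, on which the median of all tested genes was -0.01. Fewer cells of a kind and less RNA per cell cannot be told apart in such sums.

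**Figure D1:**
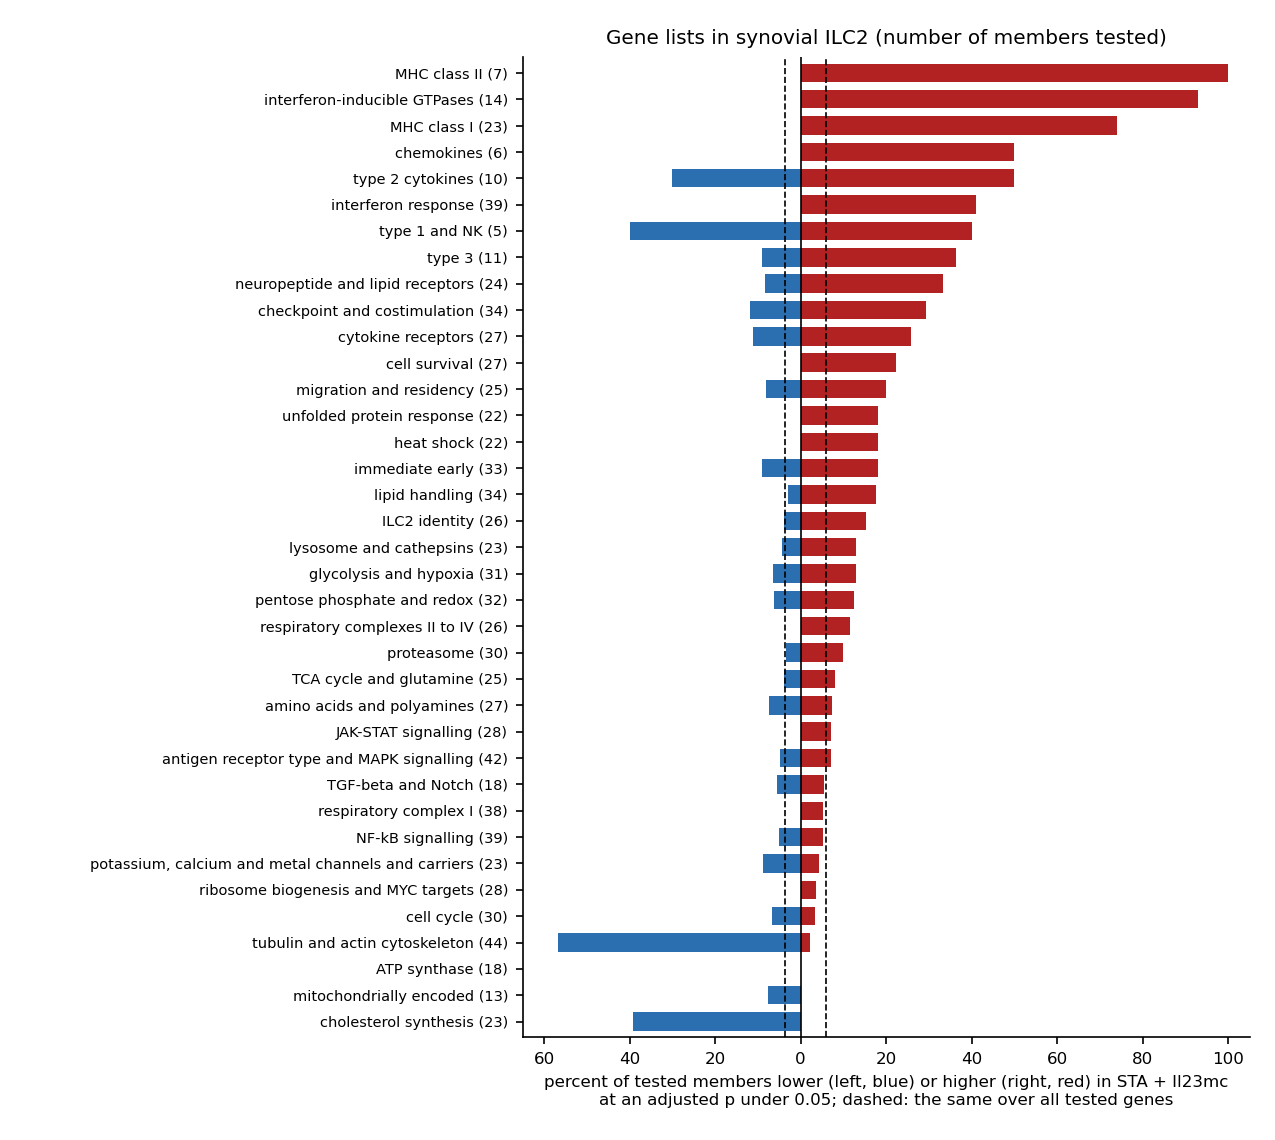
Gene lists in synovial ILC2: for each list (rows, with the number of tested members), the percent of tested members that passed an adjusted p of 0.05 and were lower (left, blue) or higher (right, red) in the 3 STA + Il23mc mice than in the 3 healthy mice. Dashed lines give the same over all 6603 tested genes, 5.94% higher and 3.7% lower; all 7 class II genes and 13 of 14 interferon-inducible GTPases lie to the right, and 25 of 44 cytoskeleton genes to the left.

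The interferon-inducible GTPases rose almost throughout. Of 14 tested members 13 rose and none fell, with a median log2 fold change of 2.68. The list summed to 120 to 157 CPM in the healthy mice and 680 to 1046 CPM in the Il23mc mice. In the outside healthy hashtag it was 128 CPM. Igtp, Tgtp1, Tgtp2 and Iigp1, low in the healthy mice, could be tested through their Il23mc counts alone, which favours rises among tested members. Without a filter on low counts 15 of 17 tested members rose and none fell. Gbp2, a guanylate-binding protein, stood at 1.27, 12.5 and 5.42 CPM in the healthy mice and 146, 67.5 and 112 CPM in the Il23mc mice (log2 fold change 3.84, SE 0.38, edgeR adjusted p = 6.39e-06). Igtp, an immunity-related GTPase, stood at 3.82, 5.01 and 5.42 CPM against 81.3, 31.3 and 52.4 CPM (log2 fold change 3.52, SE 0.38, edgeR adjusted p = 1.65e-05). Both were low in every healthy mouse, and no mouse of one group reached the other. The paired genes Tgtp1 and Tgtp2, whose promoters are printed above, both rose from near 0. Tgtp2 stood at 1.27, 2.00 and 6.32 CPM against 58.6, 40.2 and 49.1 CPM (log2 fold change 4.05, SE 0.38, edgeR adjusted p = 4.27e-06). Tgtp1 had 2 UMIs in the healthy mice together and 74 in the Il23mc mice, a log2 ratio of 5.74 with a counting interval (95%) of 3.84 to 8.81. The 2 genes are near-identical copies, so reads may have been split between them or lost. Iigp1, another immunity-related GTPase, had 1 healthy UMI against 110 (log2 ratio 7.31, counting interval 4.80 to 12.6). Gbp4, Gbp6, Gbp7, Irgm1 and Ifi47 rose by 2.35, 3.81, 1.91, 2.84 and 2.52 on the log2 scale, with edgeR adjusted p from 7.14e-06 to 2.86e-05. The remaining tested member, Gvin1, had a log2 fold change of 0.58 (edgeR adjusted p = 0.403).

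In interferon signalling, Irf1, an interferon-induced transcription factor that switches on class I genes, stood at 81.6, 60.1 and 54.2 CPM in the healthy mice and 153, 149 and 112 CPM in the Il23mc mice (log2 fold change 1.25, SE 0.19, edgeR adjusted p = 0.00044), with 90.4 CPM in the outside hashtag, between the groups. Across 39 tested genes of the wider interferon response, 16 rose and none fell (median 0.63). They included Zbp1, a nucleic acid sensor (log2 fold change 1.92, SE 0.26, edgeR adjusted p = 0.00015), Bst2, which tethers budding virus (1.25), and Ly6a, the surface protein Sca-1 (2.21). Ly6a stood at 373, 189 and 219 CPM in the healthy mice and 1154, 959 and 1108 CPM in the Il23mc mice. Healthy mouse 1 was the highest of its group, still far below the Il23mc mice, and the outside hashtag held 181 CPM. The interferon-induced genes Rtp4, Isg20, Xaf1 and Parp14 rose by 2.36, 1.79, 1.28 and 0.90, and leaving out a single mouse ended the call of Isg20 without Il23mc mouse 2 (edgeR adjusted p = 0.108), Xaf1 without healthy mouse 1, 2 or 3 or Il23mc mouse 1 or 2 (edgeR adjusted p = 0.0582 to 0.123) and Parp14 without healthy mouse 1 or 3 or Il23mc mouse 1 or 3 (edgeR adjusted p = 0.0643 to 0.139). Isg15, Irf7 and Ifitm3 did not pass, with log2 fold changes of 0.67 for Isg15 (edgeR adjusted p = 0.112), 0.54 for Irf7 (edgeR adjusted p = 0.47) and 0.39 for Ifitm3 (edgeR adjusted p = 0.512). None of the 4 tested interferon receptor chains passed, with 0.37 for Ifngr1 (edgeR adjusted p = 0.242), -0.67 for Ifngr2 (edgeR adjusted p = 0.0701), -0.33 for Ifnar1 (edgeR adjusted p = 0.285) and 0.35 for Ifnar2 (edgeR adjusted p = 0.374). Ifng itself was too low in ILC2 to be tested, while the ILC3 of Il23mc mice 1, 2 and 3, Cd3-bearing cells included, held 17.2, 136 and 0 CPM of it against 0 to 4.52 CPM in the healthy mice. Without the Cd3-bearing cells the ILC3 held 5.23, 0 and 0 CPM (1, 0 and 0 UMIs) against 0 to 3.84 CPM, so this difference was not seen under the rule used for the ILC2.

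Class I antigen presentation, which displays peptides of a cell's own proteins, rose widely. Of 23 tested members 17 were higher and none was lower (median 0.97). The list summed to 6078 to 6312 CPM in the healthy mice and 11573 to 12377 CPM in the Il23mc mice. The outside hashtag held 8172 CPM, above every healthy mouse. It lay on the healthy side for 13 of the 17, and with it added to the healthy samples 13 were higher. B2m, the invariant light chain, stood at 1932, 1693 and 1888 CPM in the healthy mice and 4762, 4694 and 4039 CPM in the Il23mc mice (log2 fold change 1.45, SE 0.10, edgeR adjusted p = 3.9e-07). The lowest Il23mc mouse was far above the highest healthy one, and the outside hashtag held 1685 CPM, below all 6 mice. The heavy chains H2-K1 and H2-Q7 rose by 1.18 and 1.41, and the outside hashtag lay between the groups at 1731 and 408 CPM. H2-D1 rose by 0.63 and H2-Q4 by 1.01 within the experiment, but the outside healthy hashtag held 2037 CPM of H2-D1 and 259 CPM of H2-Q4, above every Il23mc mouse. These heavy chain genes are close copies of each other and their reads may have been split between them. Peptide supply moved the same way: Tap1, a subunit of the peptide transporter, stood at 16.6, 16.0 and 27.1 CPM against 68.1, 50.6 and 62.2 CPM (log2 fold change 1.74, SE 0.24, edgeR adjusted p = 0.00015), and the immunoproteasome subunits Psmb9 and Psmb10 rose by 1.51 and 1.10. Nlrc5, the transactivator of class I genes, rose by 1.85 (edgeR adjusted p = 6.39e-05). Of 30 tested subunits of the standard proteasome 3 were higher and 1 was lower (median 0.02). That is 13.3% called, against 9.63% of all tested genes. With scaling by library size alone none was higher and 3 were lower. Without healthy mouse 2, Il23mc mouse 1 or Il23mc mouse 2, none was higher and 1 was lower.

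All 7 tested genes of class II presentation, which shows captured antigen to CD4 T cells, rose (median 3.40). Members low in the healthy mice, such as H2-Aa, could be tested through their Il23mc counts alone, which favours rises among tested members. Without a filter on low counts 8 of 11 tested members rose and none fell. Cd74, the invariant chain, stood at 16.6, 24.0 and 38.8 CPM in the healthy mice and 817, 488 and 280.5 CPM in the Il23mc mice (log2 fold change 4.43, SE 0.34, edgeR adjusted p = 9.34e-07). H2-Aa, an alpha chain, stood at 2.55, 1.00 and 9.03 CPM against 117, 77.1 and 52.4 CPM (log2 fold change 4.54, SE 0.45, edgeR adjusted p = 6.31e-06), and H2-Ab1 and H2-Eb1 rose by 4.05 and 3.40. In all of these Il23mc mouse 1 was highest and mouse 3 lowest, and the lowest Il23mc mouse was above the highest healthy one. H2-Oa, which tunes peptide loading, stood at 21.7, 16.0 and 10.8 CPM against 60.5, 81.9 and 64.4 CPM (log2 fold change 2.30, SE 0.25, edgeR adjusted p = 1.65e-05), and Ctss, a lysosomal protease that degrades the invariant chain, at 17.8, 19.0 and 16.3 CPM against 132, 119.7 and 63.3 CPM (log2 fold change 2.68, SE 0.27, edgeR adjusted p = 7.45e-06). At least 1 UMI of H2-Aa, H2-Ab1, H2-Eb1 or Cd74 was found in 57.8, 46.7 and 28.9% of the ILC2 of Il23mc mice 1, 2 and 3 and in 8.33, 8.25 and 9.29% of those of the healthy mice. With each cell thinned to 2000 UMIs, which left out no cell, the shares were 46.1, 35.1 and 22.3% against 5.56, 2.91 and 5.75%. The 5% of ILC2 with the most of these UMIs held 48.1, 56.9 and 67.0% of the total in the Il23mc mice and 71.4, 78.3 and 86.8% in the healthy mice, where the totals were 21, 60 and 68 UMIs. For B2m the same share was 12.2 to 14.2% in the Il23mc mice. Beside this, the summed myeloid markers were 1.27 to 8.13 CPM in the healthy and 15.3 to 32.1 CPM in the Il23mc mice, with Itgam at 0 in every mouse, and the dendritic markers 11.7 to 19.5 and 7.56 to 27.3 CPM, with Flt3, Itgax and Siglech at 0. The part of such cells, or of free RNA from them, in the class II result was not tested.

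**Figure D2:**
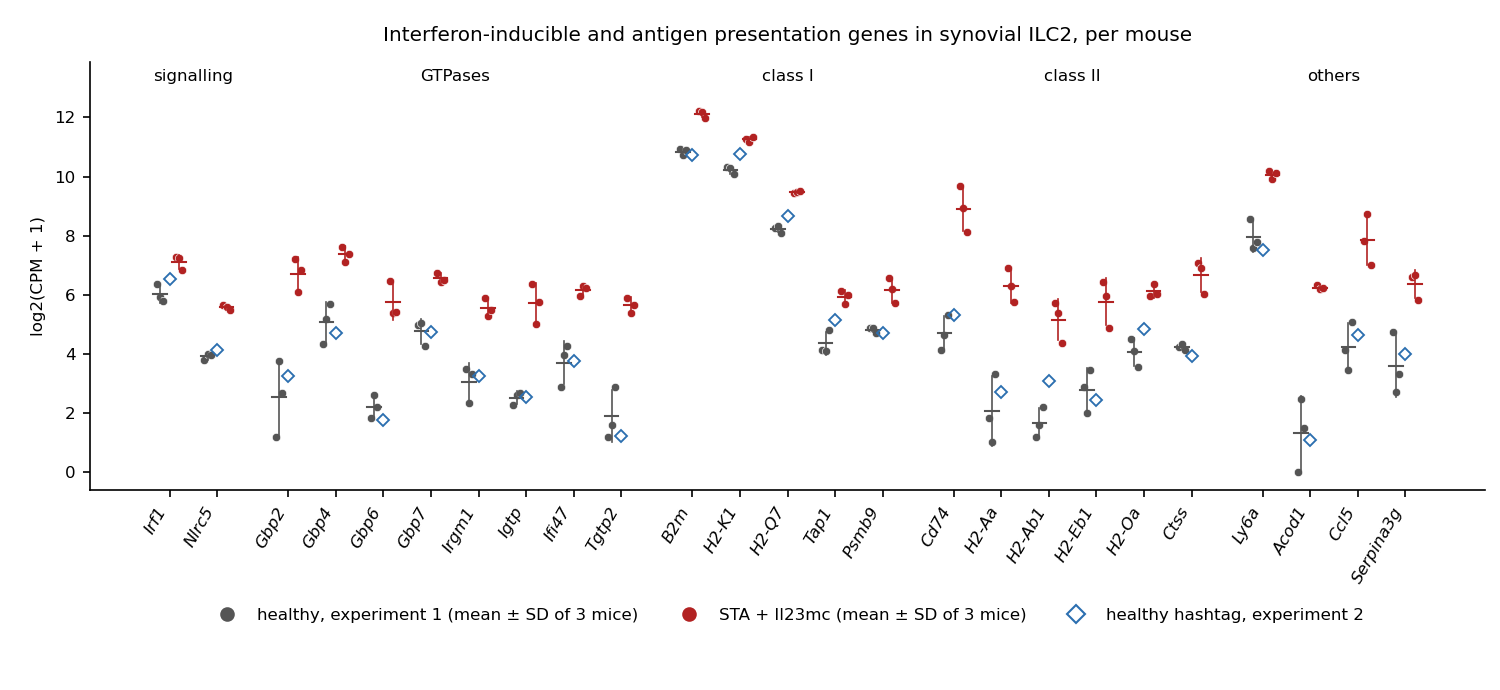
Interferon-inducible and antigen presentation genes in synovial ILC2: each dot is 1 mouse on a scale of log2(CPM + 1), grey for the 3 healthy mice and red for the 3 STA + Il23mc mice, with the mean and SD as lines; open blue diamonds are the healthy hashtag of the second experiment. Red dots lie above all grey dots for every gene shown, and the diamond of H2-K1 and H2-Q7 lies between the groups.

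The type 2 and related effector genes split. Of 10 tested cytokine genes 5 were higher and 3 lower in the Il23mc mice. Il13, which drives mucus, fibroblast and macrophage responses, stood at 584, 693 and 875 CPM in the healthy mice and 249.6, 273 and 304 CPM in the Il23mc mice (log2 fold change -1.22, SE 0.16, edgeR adjusted p = 8.62e-05). The outside hashtag held 811 CPM, within the healthy range, and the 3 Il23mc mice lay close together below it. Il5, the eosinophil growth factor, moved the other way, at 547, 981 and 854 CPM against 1163, 1684 and 899 CPM (log2 fold change 0.81, SE 0.22, edgeR adjusted p = 0.0261), but Il23mc mouse 3 lay within the healthy range. Whether the Cre allele adds to the Il5 UMIs is not given in the sources used here. Csf2, which encodes the myeloid growth factor GM-CSF, stood at 293, 229 and 164 CPM against 321, 574 and 428 CPM (log2 fold change 1.12, SE 0.23, edgeR adjusted p = 0.00383). The outside hashtag, at 327 CPM, was within the Il23mc range. Areg, amphiregulin, stood at 688, 983 and 898 CPM against 1471, 1701 and 988 CPM (log2 fold change 0.85, SE 0.18, edgeR adjusted p = 0.00575), yet the outside healthy hashtag, at 1755 CPM, was above every Il23mc mouse. Calca, which encodes the neuropeptide CGRP, showed the largest rise of the list, at 124, 213 and 102 CPM against 617, 1099.7 and 1042 CPM (log2 fold change 2.78, SE 0.26, edgeR adjusted p = 4.6e-06), with 265 CPM outside. Il4, the other signature type 2 cytokine, rose by 1.16 with overlapping groups and 34.4 CPM outside, within the Il23mc range. Tnf and Tnfsf11, the inflammatory cytokine TNF and the osteoclast factor RANKL, fell, with log2 fold changes of -1.06 and -1.33, and the groups did not overlap. The outside hashtag held 112 and 97.2 CPM of them, above all 6 mice. Leaving out a single mouse ended the call of Il5 without healthy mouse 1 or 3 or Il23mc mouse 2 (edgeR adjusted p = 0.0627 to 0.177), Il4 without healthy mouse 2 or Il23mc mouse 1 or 2 (edgeR adjusted p = 0.0706 to 0.147), Tnf without Il23mc mouse 3 (edgeR adjusted p = 0.0664) and Tnfsf11 without Il23mc mouse 2 or 3 (edgeR adjusted p = 0.0595 to 0.0705). The Il5 log2 fold change was 0.51 without Il23mc mouse 2 and the Il4 log2 fold change 0.77 without healthy mouse 2. With cells bearing Cd3d or Cd3e kept, 1 cytokine of this list was higher and 2 were lower.

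Of 26 tested genes of ILC2 identity 4 were higher and 1 lower (19.2% called, against 9.63% of all tested genes; median 0.20). Gata3, the master regulator of ILC2, and Rora, which it acts with, did not pass, with log2 fold changes of 0.26 for Gata3 (edgeR adjusted p = 0.218) and 0.30 for Rora (edgeR adjusted p = 0.138). Id2, which blocks other lymphoid fates, stood at 1431, 1309.9 and 1206 CPM against 1963, 1549.5 and 1779 CPM (log2 fold change 0.57, SE 0.12, edgeR adjusted p = 0.00528). Hs3st1, which sulphates heparan chains, showed the widest change of the list, at 25.5, 28.6 and 32.5 CPM in the healthy mice and 217, 232 and 170.2 CPM in the Il23mc mice (log2 fold change 2.98, SE 0.19, edgeR adjusted p = 1.78e-07), with 123 CPM outside, above the healthy and below the Il23mc mice. Tcf7, a factor of precursors, had a log2 fold change of -0.999 (edgeR adjusted p = 0.0949).

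Genes of type 3 cells appeared at low levels. Il22, a cytokine of ILC3 and T cells, had 0 UMIs in the healthy mice and 99 in the Il23mc mice (0, 0 and 0 CPM in the healthy mice and 45.4, 25.7 and 46.9 CPM in the Il23mc mice), at least 47.7-fold higher when 0 is read as 3 counts over the group, and 0.22 CPM outside. Il17a stood at 0, 8.52 and 2.71 CPM against 15.1, 27.3 and 22.9 CPM (log2 fold change 2.34, SE 0.49, edgeR adjusted p = 0.00556). The groups did not overlap for either gene. ILC3 of Il23mc mice 1, 2 and 3, Cd3-bearing cells included, held far more, 1768, 3268 and 1222 CPM of Il22 and 1332, 2671 and 152 CPM of Il17a. In the ILC3 without Cd3d or Cd3e, Il22 was 36.6, 32.4 and 1689 CPM and Il17a 83.7, 38.9 and 81.5 CPM (16, 6 and 7 UMIs). In ILC2 the most Il22 UMIs in 1 cell were 2, 3 and 3. With the annotated ILC2 that bear Cd3d or Cd3e kept, Il22 was 1269, 169.8 and 48.6 CPM, and with cells bearing any of 5 T cell genes left out it was 48.4, 24.6 and 49.3 CPM. The part of free RNA from other cells of these wells in the Il22 UMIs was not tested. Il23r, the IL-23 receptor chain of type 3 cells, was too low to test. The Il17a log2 fold change was 3.91 without healthy mouse 2, and leaving out a single mouse ended the call of Il17a without Il23mc mouse 2 (edgeR adjusted p = 0.0573).

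**Figure D3:**
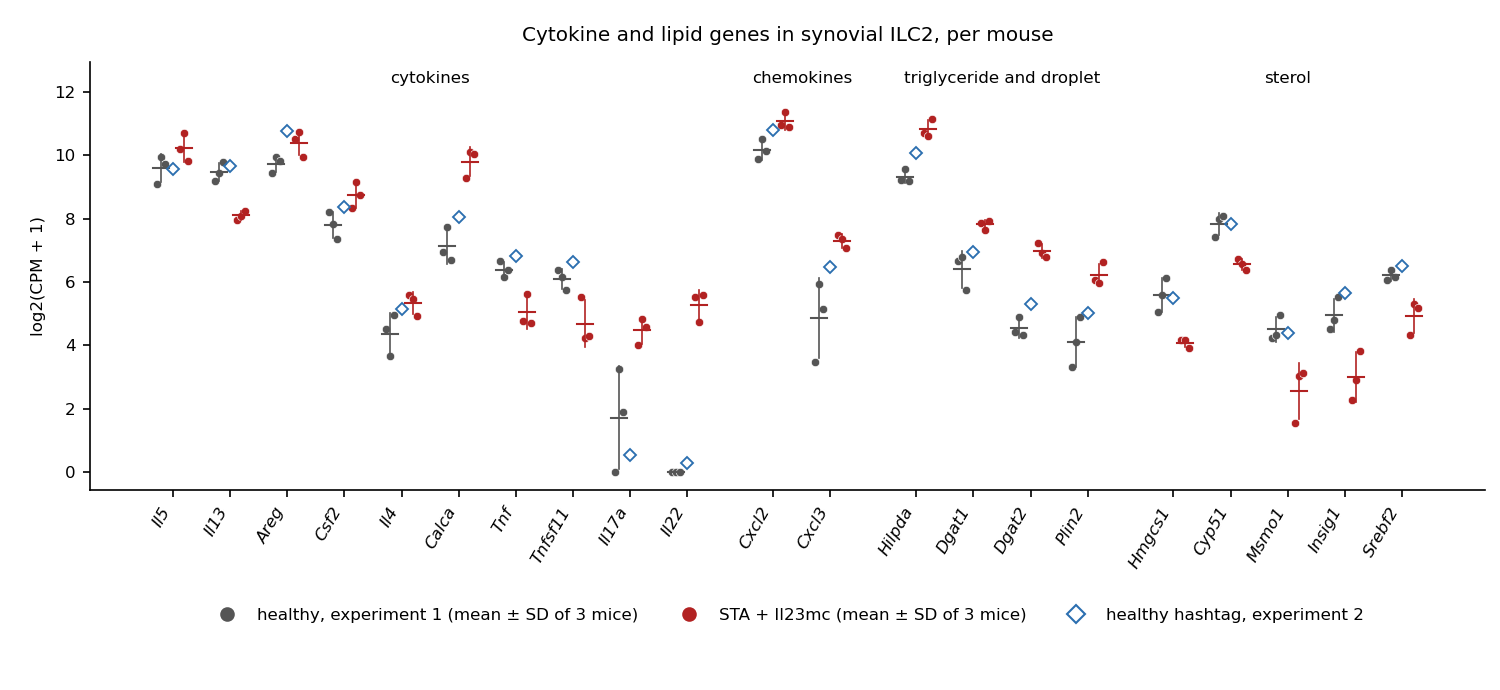
Cytokine, chemokine and lipid genes in synovial ILC2: each dot is 1 mouse on a scale of log2(CPM + 1), grey for the 3 healthy mice and red for the 3 STA + Il23mc mice, with the mean and SD as lines; open blue diamonds are the healthy hashtag of the second experiment. Il13, Tnf, Tnfsf11 and the sterol genes lie lower in red, and Calca, Cxcl3 and the triglyceride and droplet genes higher; for Areg the diamond is above the red dots.

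Of 6 tested chemokine genes 3 rose and none fell. Ccl5, which draws T cells and monocytes, stood at 16.6, 10.0 and 32.5 CPM in the healthy mice and 225, 429 and 128 CPM in the Il23mc mice (log2 fold change 3.99, SE 0.43, edgeR adjusted p = 1.4e-05), and every Il23mc mouse was several times above every healthy one. In the ILC3 of the same mice without Cd3d or Cd3e, Ccl5 was at 838.5 to 1360 CPM in the Il23mc mice and 13.7 to 106 CPM in the healthy mice. The neutrophil chemokines Cxcl2 and Cxcl3 rose by 1.04 and 2.15 (edgeR adjusted p = 0.000644 and 0.000334). Among 25 tested genes of migration and residency, 5 rose and 2 fell, or 4 and 5 with scaling by library size alone. The first is 28% called, against 9.63% of all tested genes. Itgav and Itgb3, the 2 chains of a vitronectin-binding integrin, stood at 206, 158 and 149 CPM against 463, 371 and 475 CPM and at 136, 118 and 93.9 CPM against 179.7, 169 and 235 CPM. Both rose (log2 fold change 1.51, SE 0.16, edgeR adjusted p = 1.65e-05 for Itgav, and 0.90 for Itgb3), with no overlap and the outside hashtag within the healthy range. S1pr1, the receptor that leads lymphocytes out of tissue, fell, at 53.5, 76.1 and 42.4 CPM against 18.9, 16.9 and 18.6 CPM (log2 fold change -1.56, SE 0.28, edgeR adjusted p = 0.00135). Itgae, an integrin chain of tissue-resident lymphocytes, fell too, at 93.0, 37.1 and 70.4 CPM against 51.1, 9.64 and 12.004 CPM (log2 fold change -1.52, SE 0.45, edgeR adjusted p = 0.0446), but Il23mc mouse 1 lay above healthy mouse 2 and the outside healthy hashtag, at 9.81 CPM, lay within the Il23mc range. Cxcr4, which binds a stromal chemokine, and Rgs1, which damps chemokine signals, rose by 0.90 and 0.79. Cxcr6, a receptor of tissue-resident lymphocytes, stood at 496, 594 and 457 CPM against 756, 735 and 594 CPM (log2 fold change 0.58, SE 0.15, edgeR adjusted p = 0.0195). Calls ended for Cxcr6 without healthy mouse 3 or Il23mc mouse 1 or 2 (edgeR adjusted p = 0.0762 to 0.0901) and Itgae without healthy mouse 1 or 3 or Il23mc mouse 2 or 3 (edgeR adjusted p = 0.078 to 0.239). Ccr2, Ccr4 and Ccr8 did not pass, with log2 fold changes of 0.06 for Ccr2 (edgeR adjusted p = 0.896), 0.76 for Ccr4 (edgeR adjusted p = 0.0586) and -0.64 for Ccr8 (edgeR adjusted p = 0.343).

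Of 27 tested cytokine receptor genes 7 were higher and 3 lower (median 0.31). Il1rl1, the receptor of the alarmin IL-33, stood at 800.4, 667 and 423 CPM in the healthy mice and 902, 1026 and 1071 CPM in the Il23mc mice (log2 fold change 0.82, SE 0.19, edgeR adjusted p = 0.0104). Healthy mouse 3 was lowest, and the gap between the groups was smaller than the gap between healthy mice 1 and 2. Il7r and Il2ra, the receptor chains for the survival cytokine IL-7 and for IL-2, stood at 835, 783 and 705 CPM against 1129, 1088 and 1269 CPM and at 557, 630.2 and 549 CPM against 830.2, 849.9 and 1048 CPM. Both rose, by 0.74 and 0.80 on the log2 scale (edgeR adjusted p = 0.000992 and 0.00099), and the outside hashtag, at 549 and 541 CPM, was below all 6 mice for both. Il17rb, the IL-25 receptor chain, and Il10ra, a chain of the IL-10 receptor, rose from a low level by 1.31 and 0.92. The falling receptors were Il18r1, Il9r and Il6ra. Il18r1, which binds IL-18 and marks precursor-like ILC2, stood at 185, 346 and 297 CPM against 127, 87.6 and 141 CPM (log2 fold change -1.10, SE 0.22, edgeR adjusted p = 0.00391), and the outside hashtag, at 160.2 CPM, was below every healthy mouse. Il9r stood at 70.1, 44.6 and 56.0 CPM against 24.6, 19.3 and 20.7 CPM (log2 fold change -1.23, SE 0.24, edgeR adjusted p = 0.00318). The common gamma chain Il2rg and the IL-15 receptor chain Il15ra passed with a smaller margin, and for Il15ra the outside hashtag, at 31.6 CPM, was above the Il23mc mice. Crlf2, the TSLP receptor, did not pass (0.36, edgeR adjusted p = 0.534). Leaving out a single mouse ended the call of Il17rb without healthy mouse 2 or Il23mc mouse 2 (edgeR adjusted p = 0.0712 to 0.0752), Il10ra without healthy mouse 3 or Il23mc mouse 2 (edgeR adjusted p = 0.0827 to 0.0991) and Il2rg without healthy mouse 2 or 3 or Il23mc mouse 1, 2 or 3 (edgeR adjusted p = 0.0543 to 0.161). It also ended that of Il6ra without healthy mouse 1 or 2 or Il23mc mouse 1 or 3 (edgeR adjusted p = 0.0515 to 0.085) and Il15ra without healthy mouse 3 or Il23mc mouse 1 or 2 (edgeR adjusted p = 0.069 to 0.173).

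The receptors for neuropeptides, lipid mediators and metabolites were another group with many changes. Of 24 tested genes 8 rose and 2 fell (41.7% called, against 9.63% of all tested genes). The median was 0.20, and 0.04 with scaling by library size alone. The 8 include Calca, itself no receptor gene, and the 2 include S1pr1, which the migration and residency list counts too. Cysltr2, a receptor of cysteinyl leukotrienes, stood at 15.3, 17.5 and 12.6 CPM in the healthy mice and 102, 97.2 and 48.0 CPM in the Il23mc mice (log2 fold change 2.54, SE 0.29, edgeR adjusted p = 2.63e-05). All 3 Il23mc mice lay above the highest healthy mouse, and the outside hashtag, at 27.5 CPM, lay between the groups. Cysltr1, the other leukotriene receptor of this kind, had a log2 fold change of 0.20 (edgeR adjusted p = 0.561). Ramp3, which forms adrenomedullin and amylin receptors, stood at 597, 871 and 321 CPM against 997, 921 and 1232 CPM (log2 fold change 0.95, SE 0.25, edgeR adjusted p = 0.0241), whereas Ramp1 and Calcrl, the parts of the CGRP receptor, did not pass, with log2 fold changes of -0.27 for Ramp1 (edgeR adjusted p = 0.527) and -0.30 for Calcrl (edgeR adjusted p = 0.44). Gpr65, an acid-sensing receptor, stood at 222, 229.9 and 131 CPM against 427, 400.0 and 491 CPM (log2 fold change 1.32, SE 0.20, edgeR adjusted p = 0.000324), with 190.0 CPM outside, within the healthy range. Gpr35, a receptor of tryptophan metabolites, stood at 3.82, 6.01 and 4.51 CPM against 15.1, 14.5 and 12.004 CPM (log2 fold change 1.57, SE 0.38, edgeR adjusted p = 0.0134), and Gpr34, which binds a lysophospholipid, fell by 0.73. Gpr171 and the lysophospholipid receptor P2ry10 rose by 1.02 and 0.65. Ltb4r1, which binds leukotriene B4, rose by 0.94, but the outside healthy hashtag held 97.6 CPM, above every Il23mc mouse. The prostaglandin receptors Ptger2, Ptger4 and Ptgir were not called, with log2 fold changes of 0.90, -0.20 and 0.27 and edgeR adjusted p from 0.236 to 0.681. The calls that ended when 1 mouse was left out were those of Ramp3 without Il23mc mouse 3 (edgeR adjusted p = 0.113), P2ry10 without healthy mouse 3 or Il23mc mouse 1 (edgeR adjusted p = 0.0678 to 0.0945), Gpr34 without healthy mouse 1, 2 or 3 or Il23mc mouse 1, 2 or 3 (edgeR adjusted p = 0.0652 to 0.169) and Gpr35 without healthy mouse 3 or Il23mc mouse 1 or 2 (edgeR adjusted p = 0.0533 to 0.107).

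**Figure D4:**
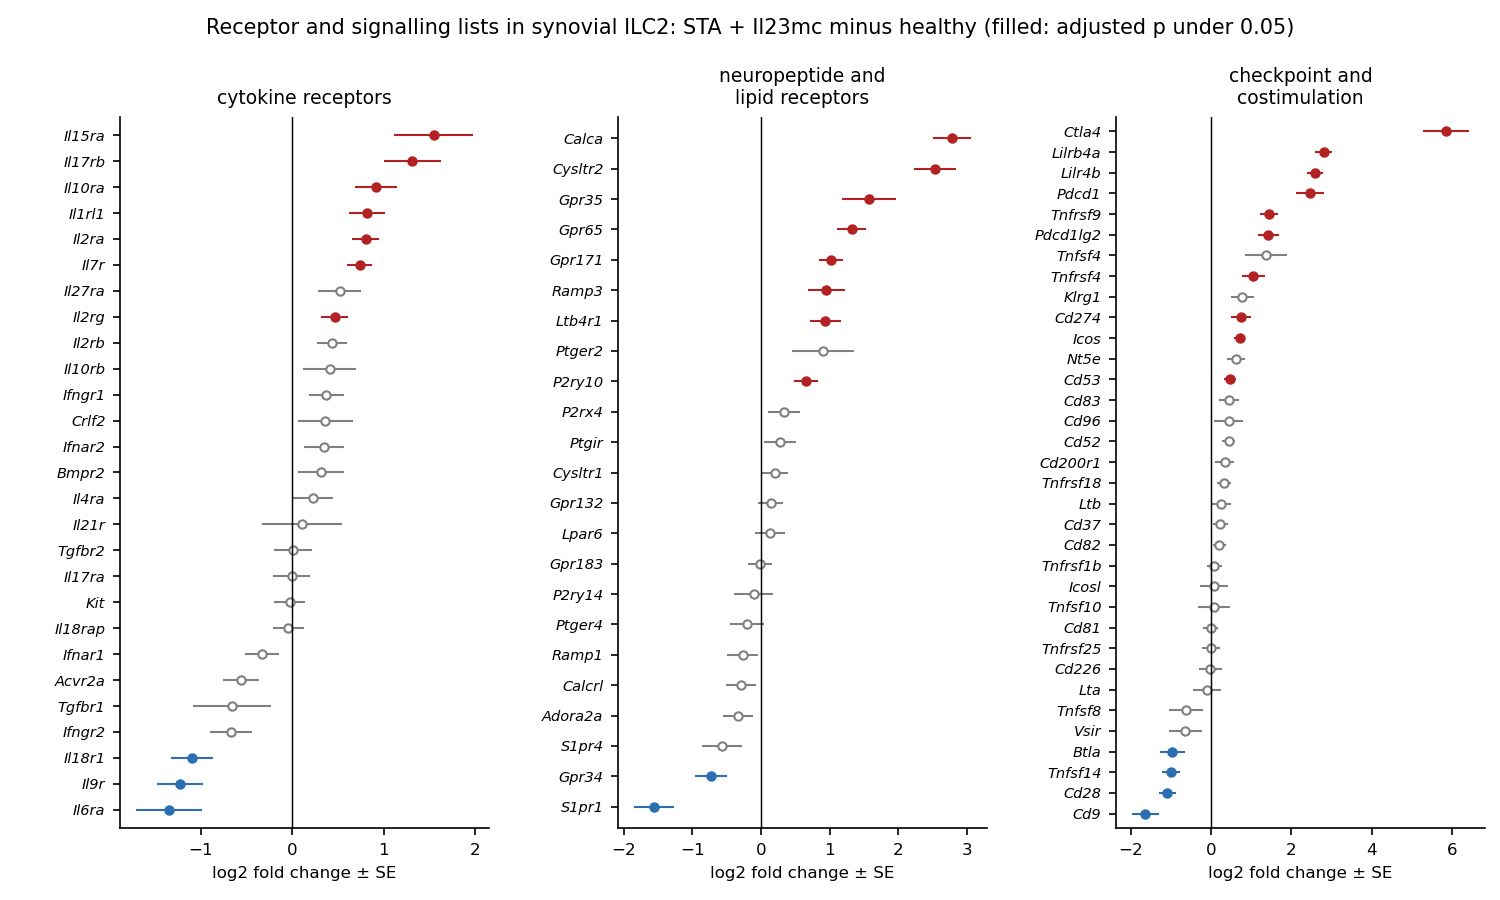
Receptor and signalling lists in synovial ILC2: log2 fold change of STA + Il23mc minus healthy with its SE for tested members of 3 lists, filled red or blue where the adjusted p was under 0.05 and open grey where it was not. Ctla4, Lilrb4a, Lilr4b, Pdcd1, Calca and Cysltr2 lie farthest to the right, and S1pr1, Cd9 and Il6ra farthest to the left of their lists. The fitted value of Ctla4 rests on 2 healthy UMIs.

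Among 34 tested checkpoint and costimulation genes 10 rose and 4 fell (median 0.33). Pdcd1, which encodes the inhibitory receptor PD-1, stood at 81.6, 59.6 and 19.9 CPM in the healthy mice and 339, 197 and 274 CPM in the Il23mc mice (log2 fold change 2.47, SE 0.32, edgeR adjusted p = 9.3e-05). Its ligand Pdcd1lg2 (PD-L2) stood at 28.0, 56.1 and 30.7 CPM against 100.2, 108 and 86.2 CPM (log2 fold change 1.42, SE 0.24, edgeR adjusted p = 0.000927). Both were higher in every Il23mc mouse, with 70.4 and 39.0 CPM outside, within the healthy range. Ctla4, the inhibitory competitor of Cd28, had 2 healthy UMIs and 87 in the Il23mc mice, a log2 ratio of 5.97 with a counting interval of 4.08 to 9.04. Cd28 itself fell, at 433, 394 and 320.5 CPM against 121, 176 and 181 CPM (log2 fold change -1.09, SE 0.18, edgeR adjusted p = 0.00083), with 207 CPM outside, between the groups. The inhibitory receptors Lilrb4a and Lilr4b, neighbours of similar sequence, stood at 163, 115 and 89.4 CPM against 823, 721 and 749.7 CPM and at 121, 85.2 and 81.3 CPM against 480.3, 501 and 555 CPM (log2 fold change 2.80, SE 0.19, edgeR adjusted p = 2.65e-07 for Lilrb4a, and 2.59 for Lilr4b). Every Il23mc mouse was several times above every healthy one, and the reads of the 2 genes may have been split between them. Cd274, the PD-1 ligand PD-L1, stood at 61.2, 93.7 and 81.3 CPM against 159, 86.8 and 129.9 CPM (log2 fold change 0.75, SE 0.21, edgeR adjusted p = 0.0357), with overlapping groups. The UMIs of Lilrb4a were spread over the cells, with 20.3 to 22.1% of them in the top 5% of ILC2 of each Il23mc mouse. Btla, another inhibitory receptor, stood at 37.0, 26.0 and 33.4 CPM against 20.8, 12.9 and 12.004 CPM and fell by 0.96, and the outside hashtag, at 15.3 CPM, lay within the Il23mc range. Of the costimulatory genes, Icos rose by 0.72 and Tnfrsf9 (4-1BB) by 1.44 (edgeR adjusted p = 0.000867 and 0.000168), while the ligand Tnfsf14 (LIGHT) and the tetraspanin Cd9 fell, with log2 fold changes of -0.99 and -1.63. The calls ended for Cd274 without healthy mouse 1 or 3 or Il23mc mouse 1 or 3 (edgeR adjusted p = 0.0877 to 0.15) and Btla without healthy mouse 1, 2 or 3 or Il23mc mouse 2 or 3 (edgeR adjusted p = 0.0525 to 0.162). Of 5 tested genes of type 1 and NK cells 2 rose and 2 fell (80% called, against 9.63% of all tested genes; median 0.14). The 2 that fell were Nkg7, a cytotoxic granule protein, and Klrk1, the activating receptor NKG2D. With cells bearing any of 5 T cell genes left out, 1 gene of this list rose and 2 fell. Nkg7 stood at 133, 86.2 and 104 CPM against 7.56, 12.05 and 9.82 CPM (log2 fold change -3.18, SE 0.26, edgeR adjusted p = 1.49e-06). Klrk1 stood at 368, 239 and 297 CPM against 88.9, 48.2 and 62.2 CPM (log2 fold change -2.08, SE 0.21, edgeR adjusted p = 9.58e-06). For both the outside hashtag lay between the groups, at 50.8 and 129 CPM.

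In intracellular signalling, 2 of 28 tested JAK-STAT genes rose and none fell (7.14% called, below the 9.63% of all tested genes). Stat4, which relays IL-12 and IL-23 signals, stood at 98.1, 149.8 and 113 CPM in the healthy mice and 216, 215 and 361 CPM in the Il23mc mice (log2 fold change 1.27, SE 0.22, edgeR adjusted p = 0.00102), with Il23mc mouse 3 highest and 102 CPM outside. Stat3, Stat5a and Stat6 did not pass, with log2 fold changes of 0.46 for Stat3 (edgeR adjusted p = 0.0813), 0.87 for Stat5a (edgeR adjusted p = 0.068) and 0.74 for Stat6 (edgeR adjusted p = 0.0609). Of 39 NF-kB genes 2 were higher and 2 lower, near the background of 9.63%: Tnip3, an inhibitor of the pathway, rose by 2.15 (edgeR adjusted p = 0.00158). Nfkbia and Tnfaip3, its feedback inhibitors, had log2 fold changes of 0.03 for Nfkbia (edgeR adjusted p = 0.925) and 0.18 for Tnfaip3 (edgeR adjusted p = 0.382). Among 33 immediate early genes 6 were higher and 3 lower (27.3% called), and for 4 of these 9 the outside healthy hashtag lay on the healthy side. The balance turned to 5 higher and 10 lower with scaling by library size alone and to 5 and 8 without Il23mc mouse 2. The list summed to 22655 to 26719 CPM in the healthy mice, 19238 to 24448 CPM in the Il23mc mice and 40424 CPM in the outside hashtag. Klf6 stood at 1881, 1806 and 2136 CPM against 1086, 1064 and 731 CPM (log2 fold change -0.86, SE 0.14, edgeR adjusted p = 0.000797). Fos and Nr4a1, induced by stimulation and by tissue digestion alike, did not pass, with log2 fold changes of -0.69 for Fos (edgeR adjusted p = 0.092) and -0.07 for Nr4a1 (edgeR adjusted p = 0.805). Of 42 antigen receptor type and MAPK genes 3 were higher and 2 lower, also near the background, or 3 and 5 with scaling by library size alone. Txk, a Tec-family kinase, rose, at 29.3, 17.5 and 20.8 CPM against 113, 47.4 and 53.5 CPM (log2 fold change 1.78, SE 0.31, edgeR adjusted p = 0.0012), while the MAPK brakes Dusp5 and Spry2 rose by 0.77 and 0.64 to levels at or below those of the outside healthy hashtag (487 and 392 CPM) in some or all Il23mc mice.

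Lipid genes divided between storage and sterol synthesis. Of 34 tested genes of lipid handling 6 were higher and 1 was lower (20.6% called, against 9.63% of all tested genes). Hilpda, which coats lipid droplets and blocks their breakdown, stood at 594, 751 and 582 CPM in the healthy mice and 1666, 1569 and 2273 CPM in the Il23mc mice (log2 fold change 1.66, SE 0.16, edgeR adjusted p = 4.32e-06). Dgat1 and Dgat2, the enzymes of the last step of triglyceride synthesis, stood at 99.4, 111 and 52.4 CPM against 233, 200.0 and 243 CPM and at 20.4, 28.6 and 19.0 CPM against 149, 119.7 and 109 CPM (log2 fold change 2.54, SE 0.21, edgeR adjusted p = 1.49e-06 for Dgat2, and 1.49 for Dgat1). Plin2, a droplet coat protein, stood at 8.92, 16.0 and 28.9 CPM against 66.2, 61.0 and 98.2 CPM (log2 fold change 2.19, SE 0.29, edgeR adjusted p = 0.000121). For these 4 genes no Il23mc mouse overlapped the healthy mice and the outside hashtag, at 1072, 123, 38.1 and 31.6 CPM, lay above the healthy and below the Il23mc mice. Ptgs2, the inducible enzyme of prostaglandin synthesis, stood at 25.5, 0.501 and 33.4 CPM against 64.3, 152 and 60.02 CPM (log2 fold change 2.72, SE 0.58, edgeR adjusted p = 0.00604). Pparg, a lipid-sensing transcription factor of ILC2, stood at 11.5, 10.0 and 13.5 CPM against 17.0, 47.4 and 18.6 CPM and rose by 1.54, but the outside hashtag, at 27.2 CPM, lay within the Il23mc range. Without Il23mc mouse 2 the log2 fold change was 0.78 for Pparg and 2.05 for Ptgs2, and calls ended for Pparg without healthy mouse 2 or Il23mc mouse 2 (edgeR adjusted p = 0.0858 to 0.265) and Ptgs2 without Il23mc mouse 2 (edgeR adjusted p = 0.0712). Plin3, another droplet protein, fell by 1.84. The fatty acid oxidation genes Cpt1a, Acadl and Hadha did not pass, with log2 fold changes of 0.32 for Cpt1a (edgeR adjusted p = 0.588), -0.17 for Acadl (edgeR adjusted p = 0.70) and 0.40 for Hadha (edgeR adjusted p = 0.206).

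Genes of cholesterol synthesis and uptake fell: of 23 tested genes none was higher and 9 were lower (median -0.71), and their sum went from 985 to 1282 CPM in the healthy mice to 719 to 749 CPM in the Il23mc mice, with 1145 CPM outside. Hmgcs1, an early enzyme of the pathway, stood at 31.9, 46.6 and 68.6 CPM in the healthy mice and 17.0, 16.9 and 14.2 CPM in the Il23mc mice (log2 fold change -1.47, SE 0.29, edgeR adjusted p = 0.00314). Cyp51, a later enzyme, stood at 171, 251 and 268 CPM against 104, 94.0 and 81.8 CPM (log2 fold change -1.17, SE 0.18, edgeR adjusted p = 0.000556). The groups did not overlap for these genes, and healthy mouse 3 was highest in each. Srebf2, the transcription factor of the pathway, and its retention factor Insig1 fell, with log2 fold changes of -1.02 and -1.77, and so did the enzyme gene Msmo1, with -1.65. Soat1, which esterifies cholesterol, did not pass, with a log2 fold change of 0.56 (edgeR adjusted p = 0.119). Leaving out a single mouse ended the call of Srebf2 without healthy mouse 2 (edgeR adjusted p = 0.0572), Insig1 without Il23mc mouse 2 (edgeR adjusted p = 0.0554) and Msmo1 without healthy mouse 3 (edgeR adjusted p = 0.0793). The list count stayed between 6 and 10 lower, with none higher, over the 6 fits that each leave out 1 mouse. Within ILC2-2, 6 of 15 tested genes of the list were lower (median -1.10), within ILC2-1 1 of 6 (median -0.17) and within ILC2-3 1 of 8 (median 0.09).

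Of 31 tested genes of glycolysis and hypoxia 4 were higher and 2 lower (19.4% called, against 9.63% of all tested genes; median 0.02). Hif1a, the oxygen-regulated transcription factor, stood at 189.9, 260.0 and 222 CPM in the healthy mice and 507, 398 and 387 CPM in the Il23mc mice (log2 fold change 1.08, SE 0.16, edgeR adjusted p = 0.000317), and its relative Epas1 at 6.37, 4.01 and 2.71 CPM against 18.9, 18.5 and 17.5 CPM (log2 fold change 2.26, SE 0.38, edgeR adjusted p = 0.000927). Both were higher in each Il23mc mouse than in each healthy one, and the outside hashtag held 247 and 8.28 CPM. Ldha, which makes lactate, rose by 0.59, and Gapdh, an enzyme of mid glycolysis, fell by 0.53 (edgeR adjusted p = 0.00363 and 0.00909). Eno1 fell by 1.72, but its near-identical copy Eno1b rose by 1.04, and reads may have been split between them, so both changes are uncertain. The call ended for Eno1b without Il23mc mouse 2 or 3 (edgeR adjusted p = 0.0696 to 0.0867). The glucose transporter Slc2a1 and the hexokinase Hk2 did not pass, with log2 fold changes of -0.11 for Slc2a1 (edgeR adjusted p = 0.863) and 0.24 for Hk2 (edgeR adjusted p = 0.646). Of 38 complex I subunits 2 were higher, of 26 subunits of complexes II to IV 3 were higher, and of 18 ATP synthase subunits none passed. These were 5.26, 11.5 and 0% called, against 9.63% of all tested genes. The medians of 0.02, 0.12 and 0.13 turned to -0.14, -0.04 and -0.03 with scaling by library size alone. Without Il23mc mouse 2 none of complexes II to IV was higher and 2 were lower. Among the 13 mitochondrially encoded genes mt-Co1 alone passed, lower by 0.55 (edgeR adjusted p = 0.000687).

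Within the list of the TCA cycle and glutamine, 2 of 25 tested genes were higher and 1 lower. That is 12% called, near the 9.63% of all tested genes. Acod1, which diverts aconitate to the antimicrobial metabolite itaconate, stood at 0, 4.51 and 1.81 CPM in the healthy mice and 79.4, 71.5 and 73.1 CPM in the Il23mc mice (log2 fold change 4.83, SE 0.36, edgeR adjusted p = 5.18e-07), and the outside hashtag held 1.09 CPM. The 3 Il23mc mice were alike, but the UMIs came from few cells: the 5% of ILC2 with the most held 83.3, 88.8 and 94.0% of them, and 1 cell of mouse 3 held 26. The summed neutrophil markers, 0 in every healthy mouse, were 14.5 to 76.4 CPM in the Il23mc mice, and the part of such cells, or of the myeloid cells whose markers are given above, in the Acod1 result was not tested. Glud1, which feeds glutamate into the cycle, fell by 0.91 (edgeR adjusted p = 0.00141). In polyamine synthesis Odc1, its first enzyme, rose, at 626, 1206 and 959.7 CPM against 1848, 1549 and 1738 CPM (log2 fold change 1.02, SE 0.18, edgeR adjusted p = 0.0012), with 1547 CPM outside, just below the lowest Il23mc mouse. Arg1, the arginine enzyme of ILC2, did not pass, with a log2 fold change of -0.07 (edgeR adjusted p = 0.91). Of 32 redox genes 4 were higher and 2 lower (18.75% called). That balance turned to 3 and 7 with scaling by library size alone and to 3 and 4 without Il23mc mouse 2. The peroxiredoxin Prdx6 and the metal-binding Mt1 rose by 0.90 and 2.45, and the glutathione peroxidase Gpx1 fell by 0.75, with edgeR adjusted p of 0.000433, 0.000653 and 0.00764.

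Genes of protein folding and cell survival rose in part. Of 22 unfolded protein response genes 4 rose and none fell (18.2% called, against 9.63% of all tested genes), but none of the 4 passed in every fit that left out 1 mouse. Hspa5 and Xbp1 did not pass, with log2 fold changes of 0.31 for Hspa5 (edgeR adjusted p = 0.166) and 0.45 for Xbp1 (edgeR adjusted p = 0.411). With scaling by library size alone 1 gene of the list was higher and 1 lower, and the median of 0.13 turned to -0.04. Of 22 heat shock genes 4 rose and none fell (18.2% called, against 9.63% of all tested genes). For 1 of these 4 the outside healthy hashtag lay on the healthy side, and 1 passed in every fit that left out 1 mouse. Hsp90aa1, a stress-induced chaperone, stood at 739, 1352 and 1539 CPM in the healthy mice and 1857, 2314 and 3636 CPM in the Il23mc mice (log2 fold change 1.26, SE 0.24, edgeR adjusted p = 0.00234). The groups did not overlap, and the outside hashtag held 1471 CPM, near the highest healthy mouse. With the outside hashtag added to the healthy samples 1 heat shock gene passed, and without Il23mc mouse 3 also 1. Of 27 survival genes 6 rose and none fell (22.2% called, median 0.00, and -0.16 with scaling by library size alone). Bcl2, an inhibitor of apoptosis, stood at 86.7, 51.1 and 51.5 CPM against 96.4, 124 and 145 CPM (log2 fold change 1.17, SE 0.22, edgeR adjusted p = 0.00227). The protease inhibitors Serpinb9, Serpinb6b and Serpina3g rose by 2.09, 1.41 and 3.07 (edgeR adjusted p = 1.16e-05, 3.76e-05 and 5.46e-05). Bcl2l1, Mcl1 and Bax did not pass, with log2 fold changes of -0.37 for Bcl2l1 (edgeR adjusted p = 0.484), 0.00 for Mcl1 (edgeR adjusted p = 0.993) and -0.32 for Bax (edgeR adjusted p = 0.427). Of 30 cell cycle genes 1 was higher and 2 lower (10% called, near the 9.63% of all tested genes). The proliferation marker Mki67 had a log2 fold change of -1.26 (edgeR adjusted p = 0.241).

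Gzmb, a cytotoxic granule protease, stood at 7.65, 8.01 and 14.4 CPM in the healthy mice and 28.4, 16.9 and 34.9 CPM in the Il23mc mice (log2 fold change 1.53, SE 0.36, edgeR adjusted p = 0.0105), and in the ILC3 of Il23mc mice 1, 2 and 3, Cd3-bearing cells included, it was at 1349, 1228 and 674 CPM. In the ILC3 without Cd3d or Cd3e it was at 183, 32.4 and 349 CPM (35, 5 and 30 UMIs). In ILC2 without cells bearing any of 5 T cell genes, Gzmb was 10.1, 9.82 and 12.4 CPM in the healthy mice. In the Il23mc mice it was then 13.5, 12.8 and 37.0 CPM (5, 12 and 27 UMIs), so mice 1 and 2 lay close to the healthy range. Of 23 lysosomal genes 3 were higher and 1 lower (17.4% called, against 9.63% of all tested genes). Of 23 channels and carriers 1 was higher and 2 lower (13.0% called, near that background). Kcnn4, a calcium-activated potassium channel of activated lymphocytes, stood at 47.2, 74.6 and 70.4 CPM against 41.6, 24.1 and 24.0 CPM (log2 fold change -1.07, SE 0.25, edgeR adjusted p = 0.0102). Of 18 genes of TGF-beta and Notch signalling 1 was higher and 1 lower (11.1% called). Of 28 genes of ribosome biogenesis and MYC targets 1 was higher (3.57% called). These shares were near or below the 9.63% of all tested genes. Tph1, the first enzyme of serotonin synthesis, stood at 21.7, 5.01 and 0 CPM against 56.7, 45.0 and 9.82 CPM (log2 fold change 2.44, SE 0.67, edgeR adjusted p = 0.0292), with overlapping groups. Leaving out a single mouse ended the call of Gzmb without healthy mouse 2 or Il23mc mouse 3 (edgeR adjusted p = 0.0734 to 0.0835), Tph1 without healthy mouse 2 or 3 or Il23mc mouse 1 or 2 (edgeR adjusted p = 0.0877 to 0.16) and Kcnn4 without healthy mouse 2 or Il23mc mouse 2 or 3 (edgeR adjusted p = 0.0619 to 0.072).

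The list with the most falling genes was the cytoskeleton and the calcium- and membrane-binding proteins tied to it. Of 44 tested genes 25 fell and 1 rose (median -0.60, and -0.76 with scaling by library size alone). The list summed to 54759 to 65767 CPM in the healthy mice and 37463 to 41443 CPM in the Il23mc mice. The outside hashtag held 46549 CPM, between the groups, and lay on the healthy side for 25 of the genes that passed. Vim, the intermediate filament vimentin, stood at 1431, 1553 and 1886 CPM in the healthy mice and 664, 651 and 498 CPM in the Il23mc mice (log2 fold change -1.27, SE 0.14, edgeR adjusted p = 1.73e-05). All healthy mice stood far above all Il23mc mice, and the outside hashtag held 1888 CPM, level with the highest healthy mouse. S100a6, a calcium-binding protein, stood at 3974, 4075 and 5470.1 CPM against 1755, 1629 and 1779.8 CPM (log2 fold change -1.23, SE 0.11, edgeR adjusted p = 4.27e-06), with 2403 CPM outside, between the groups. Lgals1, the galectin that binds surface glycans, stood at 1577, 2021 and 2728 CPM against 656, 726 and 386 CPM (log2 fold change -1.68, SE 0.21, edgeR adjusted p = 6.4e-05). The nuclear lamina gene Lmna, the annexin Anxa1, the filamin Flna, the membrane linker Ezr and the actin gene Actb fell, with log2 fold changes of -1.09, -1.30, -0.82, -1.06 and -0.56. Emp1, an epithelial membrane protein, fell by 2.52. The tubulin-binding genes Tppp and Tppp3 were nearly lost, with 141 healthy UMIs against 2 for Tppp and 104 against 3 for Tppp3 (log2 ratios -5.61, counting interval -8.67 to -3.73, and -4.58, counting interval -6.88 to -2.997). The outside hashtag held 27.5 and 28.3 CPM of them, within the healthy range for Tppp3 and just below it for Tppp. Of the tubulins, Tuba4a fell by 0.97, while Tuba1b and Tubb5 did not pass, with log2 fold changes of -0.53 for Tuba1b (edgeR adjusted p = 0.196) and -0.48 for Tubb5 (edgeR adjusted p = 0.131). The actin-binding Cfl1 and Pfn1 did not pass either, with -0.41 for Cfl1 (edgeR adjusted p = 0.10) and -0.41 for Pfn1 (edgeR adjusted p = 0.0784). The call ended for Tuba4a without Il23mc mouse 2 (edgeR adjusted p = 0.0554).

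Of the 12 genes with the largest rise and the 12 with the largest fall, several belong to none of these groups. AA467197, whose human counterpart encodes a small peptide of mitochondrial cytochrome c oxidase, stood at 12.7, 6.51 and 0 CPM in the healthy mice and 376, 419 and 313 CPM in the Il23mc mice (log2 fold change 6.08, SE 0.37, edgeR adjusted p = 1.78e-07). Healthy mouse 3 and the outside hashtag (3.49 CPM) had almost none, and the 3 Il23mc mice lay close together. Neb, which encodes the muscle protein nebulin, stood at 3.82, 0.501 and 1.81 CPM against 22.7, 26.5 and 36.0 CPM (log2 fold change 4.26, SE 0.47, edgeR adjusted p = 2.03e-05). Ly6c1, a surface protein of the Ly6 family, stood at 42.1, 1.503 and 0.903 CPM against 200.5, 122 and 199 CPM (log2 fold change 4.17, SE 0.60, edgeR adjusted p = 0.000243), and the Ly6c1 log2 fold change was 7.09 without healthy mouse 1, which held most of the healthy UMIs. Serpina3f had 2 healthy UMIs and 59 in the Il23mc mice (log2 ratio 5.41, counting interval 3.50 to 8.49). On the falling side, Dmxl2, which takes part in vesicle acidification, stood at 134, 199.9 and 195 CPM against 24.6, 38.6 and 28.4 CPM (log2 fold change -2.33, SE 0.22, edgeR adjusted p = 4.32e-06). Stab2, a scavenger receptor, stood at 15.3, 42.6 and 53.3 CPM against 9.46, 2.41 and 2.18 CPM (log2 fold change -3.16, SE 0.52, edgeR adjusted p = 0.00083). Itsn1, an endocytosis scaffold, fell by 1.96. The outside hashtag held 127, 47.9 and 31.4 CPM of these 3, above every Il23mc mouse. Hba-a1, an alpha globin of red cells, stood at 54.8, 26.0 and 91.2 CPM against 13.2, 3.21 and 1.09 CPM (log2 fold change -3.40, SE 0.59, edgeR adjusted p = 0.00116), the lone tested gene of an erythroid marker list that summed to 30.1 to 103 CPM in the healthy and 2.18 to 13.2 CPM in the Il23mc mice.

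The authors' table divides ILC2 into 3 subtypes, named ILC2-1, ILC2-2 and ILC2-3. Their shares of ILC2 were 32.0% ± 10.0, 49.6% ± 3.64 and 18.4% ± 6.62 in the healthy mice and 20.3% ± 8.11, 51.0% ± 5.32 and 28.7% ± 7.73 in the Il23mc mice (mean ± SD, n = 3; two-sided exact permutation p = 0.2, 0.8 and 0.3, where 0.1 is the smallest that 3 against 3 allows, and 0.3, 0.8 and 0.36 after Benjamini-Hochberg adjustment over 6 measures). Within 1 subtype, 216 of 2845 tested genes (7.59%) passed in ILC2-1, 367 of 4247 (8.64%) in ILC2-2 and 247 of 3119 (7.92%) in ILC2-3. Of the 636 genes above, 390 could be tested in all 3 subtypes, and 374 of them had the same sign in each, as did 45.5% of the 2088 others tested in all 3. The subtypes are parts of the sums that gave the calls, so these shares describe the genes and test nothing. Cd74 changed by 5.19, 3.91 and 4.68 in ILC2-1, ILC2-2 and ILC2-3, and B2m by 1.28, 1.42 and 1.42 on the log2 scale. Il13 changed by -2.71, -1.63 and -1.64, more in each subtype than the -1.22 of all ILC2 together. Pdcd1 changed by 3.85, 2.99 and 1.61 and Calca by 4.03, 2.63 and 2.23. Differences between the subtypes in these changes were not tested.

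**Figure D5:**
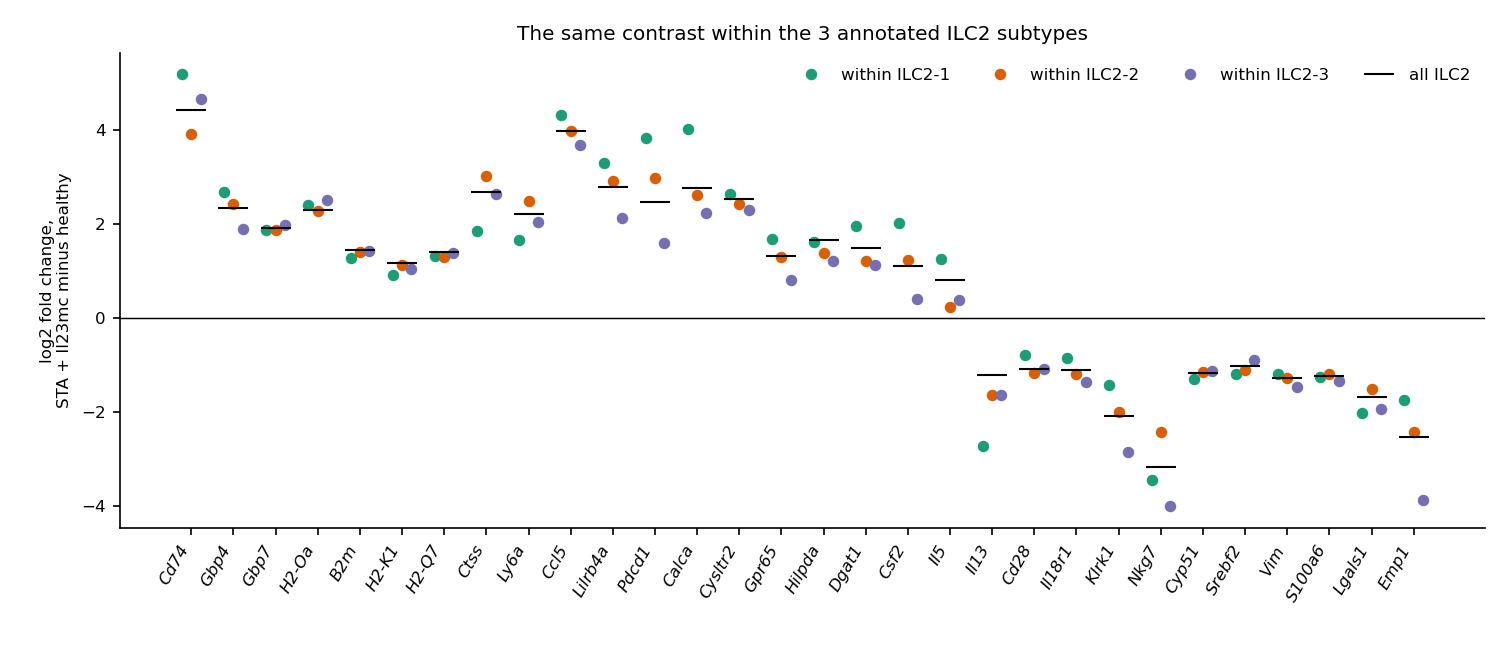
The contrast of 3 STA + Il23mc against 3 healthy mice within each annotated ILC2 subtype: dots give the log2 fold change within ILC2-1, ILC2-2 and ILC2-3 and black bars that over all ILC2. The genes shown were picked by hand, and Id2, Cxcr6, Lgals3bp, Psma2 and Dnajb1, which changed direction within a subtype, are not among them. For every gene shown the 3 dots have the same sign, which the choice of genes may explain, with Il13 below its black bar in each subtype.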

How the data were processed

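Hashtag-labelled synovial cells were read by droplet single-cell RNA sequencing. Per the submitters' processing notes the authors used Cell Ranger 6.0.6 with mm10, while the file headers name Cell Ranger 6.1.2. The deposited matrices hold raw UMI counts per gene and cell, and the authors' metadata table gives each kept cell its hashtag, condition, class name (labels that are no measured value) and, in 8 further columns not used here, other values. The share of mitochondrial UMIs is a fraction per cell in that table, as deposited by the authors. Doublets were not called anew. The cells the authors kept were used as deposited, without those bearing Cd3d or Cd3e.

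Counts were summed per mouse (528788 to 1996296 UMIs, 3 mice per group) and tested with edgeR 4.0.16 in R 4.3.3 (filterByExpr, TMM factors, quasi-likelihood test, Benjamini-Hochberg adjustment over all tested genes, threshold 0.05). The count filter keeps a gene with enough counts in either group, so a gene low in 1 group can enter through the other. SE is the log2 fold change divided by the square root of F. A CPM is a mouse's UMIs of a gene per 1000000 of its ILC2 UMIs. Genes with 3 UMIs or fewer in 1 group are given by their UMIs with an exact 95% interval of the ratio. Intervals and floors cover counting error only. On simulated counts of these 6603 genes the test recovered 46% of 2-fold and 90% of 4-fold changes, with 7 false calls.

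Named genes were the 12 higher and 12 lower of largest change with a mean of 20 CPM or more in either group and groups that do not overlap, members of gene lists past the threshold, all tested receptors and checkpoint genes, and up to 3 members of lists where none passed. Sex-linked, mitochondrial, ribosomal, immunoglobulin, T cell receptor and predicted genes could not enter among the 12. Other members named as not passing were chosen after their values were seen. Members, lists and comparisons were chosen with earlier results of these data known.

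Alternatives were RLE factors, library size alone, DESeq2 1.42.0, 2 other count filters, a replicate block, a sex term, 2 other rules on T cell genes, 1 subtype at a time, cells above the 95th UMI percentile left out, the healthy hashtag of the second experiment added, and each mouse left out. Hashtag numbers name mice and do not pair them: deviations from the group means of same-numbered mice correlated by 0.07, -0.04 and -0.08. The labels name each hashtag as 1 mouse but speak of 4 animals per well of 3 hashtags; each hashtag was taken as 1 mouse, and p-values measure the spread between hashtags. Promoters came from RefSeq (GRCm38.p6). Wells with STA alone and fibroblast wells were not used here. Some genes are not reported here.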

Additional observations from a re-analysis of the deposited data

How the results depend on the processing

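Of the 236 named genes that passed, 150 passed in each of the 6 fits that leave out 1 mouse. Those fits called 431 to 654 genes, 285 to 408 higher and 146 to 246 lower. All other fits with their calls were RLE factors 640, library size alone 718 (443 lower), DESeq2 464 (155 lower), no filter on low counts 866, at least 20 CPM in 1 group 619, a sex term 651, cells with Cd3d or Cd3e kept 437, cells with any of 5 T cell genes left out 552, cells of most UMIs left out 656, and the outside healthy hashtag added 512. Within ILC2-1, ILC2-2 and ILC2-3, with fewer UMIs and genes tested, 216, 367 and 247 passed, 145, 227 and 153 higher and 71, 140 and 94 lower. With a replicate block by hashtag number 553 passed (350 higher, 203 lower), 536 of them the same as without it.

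Direction changed in these cases, and the cause was not tested. Within ILC2-1 the Id2 log2 fold change was -0.0703, the Cxcr6 log2 fold change -0.50, the Lgals3bp log2 fold change -0.0722 and the Psma2 log2 fold change -0.0246, and within ILC2-3 the Dnajb1 log2 fold change was -0.33. With cells bearing Cd3d or Cd3e kept the Lck log2 fold change was 0.33 and the Cd3g log2 fold change 2.73. No other named gene that passed changed direction in any of these fits. At this depth and with 3 mice a group, 46% of simulated 2-fold changes were recovered, and 1456 genes had an unadjusted p under 0.05 where 636 passed. Healthy and Il23mc cells came from separate wells, so the well cannot be told apart from the condition. The outside healthy hashtag lay on the healthy side for 553 of the 636 genes that passed. Where it did not, this is said beside some genes only, so a gene without such a remark may be among them.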

Other observations

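The GTPases of immunity-associated proteins, a family encoded in 1 cluster and known for the survival of resting lymphocytes, belonged to no list above. Of 8 tested members 5 rose and none fell, against 5.94% higher and 3.7% lower of all tested genes. The median log2 fold change was 1.19 against -0.01 over all tested genes. Gimap4 stood at 3.82, 3.01 and 5.42 CPM in the healthy mice and 11.3, 13.7 and 28.4 CPM in the Il23mc mice (log2 fold change 2.35, SE 0.45, edgeR adjusted p = 0.00263), and Gimap6 at 43.3, 41.1 and 39.7 CPM against 149, 174 and 139 CPM (log2 fold change 2.06, SE 0.17, edgeR adjusted p = 1.61e-06). All Il23mc mice lay above all healthy mice for both, and the outside healthy hashtag held 1.96 and 67.3 CPM. Gimap9, Gimap5 and Gimap1 rose by 2.15, 1.02 and 1.08, but for Gimap1 the outside hashtag held 75.6 CPM, above the Il23mc mice. Gimap3 and Gimap8 did not pass, with log2 fold changes of 0.77 for Gimap3 (edgeR adjusted p = 0.0701) and 0.82 for Gimap8 (edgeR adjusted p = 0.0516). The call ended for Gimap1 without healthy mouse 2 (edgeR adjusted p = 0.059). The family was singled out after its values were seen.

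Of 79 tested ribosomal protein genes 34 were higher and 2 lower, against 5.94% higher and 3.7% lower of all tested genes. Their median log2 fold change was 0.31, and 0.15 with scaling by library size alone. Rps29, of the small subunit, stood at 7892, 7215 and 6813 CPM in the healthy mice and 9021, 9598 and 9805 CPM in the Il23mc mice (log2 fold change 0.53, SE 0.09, edgeR adjusted p = 0.000972), with 7235 CPM in the outside healthy hashtag. Of the 2 that fell, Rpl35 of the large subunit stood at 2099, 2121 and 2071 CPM against 1051, 1147 and 1104 CPM (log2 fold change -0.77, SE 0.11, edgeR adjusted p = 0.000178), with 1618 CPM outside. These genes too were singled out after their values were seen.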
